A study of Rattus norvegicus with 24 samples.

Results

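The CA1 field of the hippocampus was described in 9 young adult male Long-Evans rats, an outbred strain widely used in studies of memory. They make up 9 of the 23 arrays with values in a series that also holds aged rats, and the members were the arrays titled as young CA1. The animals were 6 months old, untreated and individually housed. They had been trained in a water maze with the aged rats and were killed 2 weeks after the testing ended, so they are trained rather than naive controls. CA1 was dissected apart from CA3 and the dentate gyrus, and total RNA was hybridised to Affymetrix rat genome arrays, 1 array per animal. Each array is labelled as a separate biological replicate. The tissue is a mixture of all cells of the dissected field, so fewer cells of a type and less RNA per cell cannot be told apart. The description covers how bright each gene was, which cell types and subfields left a signal, and which genes differed most between animals.

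CA1 pyramidal neurons are excitatory cells that receive input from CA3 and from the entorhinal cortex and send the main output of the hippocampus to the subiculum and cortex. They lie close to CA2, CA3 and the dentate gyrus, whose granule cells express their own sets of transcription factors and calcium-binding proteins. Immediate early genes such as Arc, Egr1, Fos and Nr4a1 are switched on within minutes of neuronal firing and are the usual markers of recent activity. Their promoters often hold the cAMP response element, a site bound by the transcription factor CREB.

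The promoters of 4 immediate early genes are shown because they carry the full or partial cAMP response element, and because Nr4a1, Plk2 and Vgf are among the activity genes whose signal is described below. Dusp1, which was not expressed in all arrays by the rule given below, encodes a phosphatase that shuts down MAP kinases, Plk2 a kinase of synaptic scaling, and Vgf a secreted neuropeptide precursor. Each sequence is the 250 bases before the gene's start in the RefSeq annotation of GRCr8, read 5′ to 3′ on the strand of the gene. Capitals mark TGACG on either strand, which reads CGTCA where it lies on the opposite strand, and a run of TGACGTCA is the full palindrome.
Nr4a1, chr7:134259888-134260137, plus strand: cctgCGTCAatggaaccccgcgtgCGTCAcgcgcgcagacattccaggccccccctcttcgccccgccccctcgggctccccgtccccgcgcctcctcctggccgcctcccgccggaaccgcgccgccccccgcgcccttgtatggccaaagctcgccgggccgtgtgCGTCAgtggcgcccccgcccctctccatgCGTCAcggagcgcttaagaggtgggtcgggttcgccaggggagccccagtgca
Dusp1, chr10:17184603-17184852, plus strand: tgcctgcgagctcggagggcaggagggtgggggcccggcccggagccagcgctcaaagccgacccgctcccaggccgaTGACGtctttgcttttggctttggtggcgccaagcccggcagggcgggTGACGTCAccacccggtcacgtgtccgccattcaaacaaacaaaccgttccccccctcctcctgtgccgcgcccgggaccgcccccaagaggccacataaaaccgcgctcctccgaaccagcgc
Plk2, chr2:43702286-43702535, plus strand: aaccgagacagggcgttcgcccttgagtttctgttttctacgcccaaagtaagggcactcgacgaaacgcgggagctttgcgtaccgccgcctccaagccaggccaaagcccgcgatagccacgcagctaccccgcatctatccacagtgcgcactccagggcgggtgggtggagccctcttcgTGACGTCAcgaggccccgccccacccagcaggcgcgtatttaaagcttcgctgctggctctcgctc
Vgf, chr12:25277021-25277270, minus strand: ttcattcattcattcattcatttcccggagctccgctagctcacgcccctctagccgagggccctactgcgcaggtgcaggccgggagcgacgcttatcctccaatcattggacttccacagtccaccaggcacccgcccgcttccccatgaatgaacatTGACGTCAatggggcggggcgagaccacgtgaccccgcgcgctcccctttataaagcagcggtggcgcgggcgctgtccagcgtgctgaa

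Of 27 immediate early genes on the array, 20 matched a RefSeq promoter entry by symbol. The full site TGACGTCA lay in the 250 bases of 4 of them (Dusp1, Ier2, Plk2 and Vgf), and in 1.59% of all 33469 RefSeq promoters. The shorter TGACG, which is also part of the full site, lay in 12 of them on 1 strand or the other. A gene can have several promoters. Counted by promoter, 4 of the 25 promoters of these genes held the full site and 12 held TGACG. Of all promoters 18.2% held TGACG. A match is a description of these letters and shows no binding.

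Arrays were alike in overall signal. The median log2 signal over all 31099 probe sets lay between 4.21 and 4.28. The number of genes over log2 6 lay between 7585 and 7668. The median correlation of an array with the others over expressed genes lay between 0.988 and 0.992. Replicate 5 had the lowest correlation and replicate 2 the highest. The 3 prime minus 5 prime difference of the actin control probe sets, a sign of RNA integrity, lay between 2.12 and 2.34, and that of the hexokinase probe sets between 1.26 in replicate 7 and 2.05 in replicate 3. Over all expressed genes replicate 5 was lowest in 28.1% and replicate 6 in 15.0%, while replicate 8 was highest in 19.2% and replicate 9 in 17.3%. No array repeated another: between pairs of arrays the median absolute difference of an expressed gene was 0.0959 to 0.165. The Y-linked genes Eif2s3y (9.25 to 9.82) and Uty (7.23 to 7.65) were on in all 9 arrays, and Xist, the RNA that silences an X chromosome in females, was at 2.63 to 2.84, and the label gives male rats. The column of replicate 9 lies among those of an aged group in the deposited table, and its title was followed.

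Values are log2 GCRMA signals, and a gene was called expressed where its signal was over 6 in all 9 arrays and dim where no array was over 4. Of 14218 genes, 7334 (51.6%) were expressed and 4943 (34.8%) were dim, with 1941 between. Just inside the threshold, the lowest array of Stk40 was at 6.00, and just outside it, that of Spice1 was at 6.00 to 2 decimals as well, so the boundary divides like genes. In 549 genes some arrays were over 6 and others were not. In 14 genes the signal was over 6 in some array and at or under 4 in another. They included Bhlhe40, a clock-linked repressor, which was at 3.32 in replicate 6 and up to 8.29 elsewhere, and Fos, which was at 6.18 in replicate 8 and 2.25 in replicate 6.

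The brightest probe sets were those of mitochondrial, neuronal and glial transcripts. COX2, a mitochondrially encoded subunit of cytochrome oxidase, ran from 15.17 to 15.26 with a median of 15.22. Ppp3ca, the catalytic subunit of calcineurin, ran from 14.89 to 15.00. Both spans are narrow: the highest array was 1.07-fold over the lowest for COX2 and 1.08-fold for Ppp3ca. The other 18 of the brightest 20 had means between 13.97 and 14.74. They were COX1, Eef1a1 (a translation elongation factor), Tmsb4x (an actin-binding peptide), Cpe (a neuropeptide-processing enzyme), Rps29, Scd2 (a fatty acid desaturase), Mbp (myelin basic protein), Cst3 (a protease inhibitor), Calm2 (calmodulin), Zwint, Myh1, the glial genes S100b and Apoe, the neuronal genes Map2 and Snap25, Serinc1, Rpl13a and Actg1. Myh1 is the symbol of a skeletal muscle myosin, and its 14.09 to 14.44 rests on the platform's pairing of the probe set with that symbol. Probe sets differ in how well they bind, so the order of signals between genes is not an order of RNA amounts.

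A dim signal does not mark an absent transcript. Rps13 and Rpl30, ribosomal protein genes that every cell uses, were at 2.19 to 2.30 and 2.41 to 2.50, while the other 23 of 25 ribosomal genes were expressed. Among glial markers, Olig2 (2.73 to 2.77), the microglial integrin Itgam (2.69 to 2.74) and the lysosomal Cd68 (mean 1.46) were dim although most genes of their lists were expressed. For such probe sets a low signal says only that the probes gave none above the floor.

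**Figure D1:**
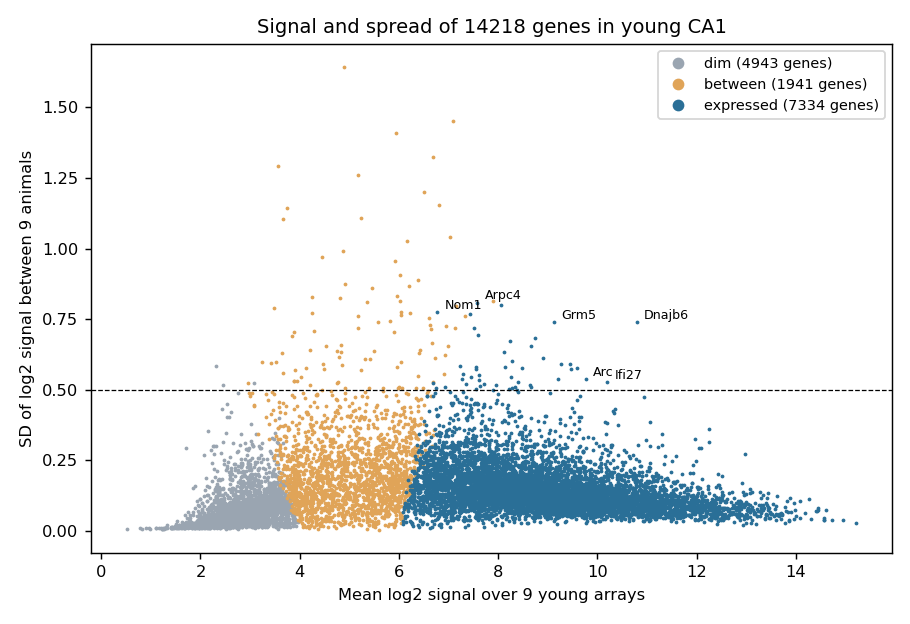
Each point is a gene, with its mean log2 signal over the 9 young arrays on the x axis and the SD between the 9 animals on the y axis. Colours mark 7334 expressed, 1941 between and 4943 dim genes, the dashed line is an SD of 0.5, and 46 expressed genes lie over it, most of them with a mean under 10.

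Neuronal and astrocyte markers were all expressed. Of the lists of known markers, all 14 genes of excitatory forebrain neurons, all 12 general neuronal genes and all 22 astrocyte genes were expressed, against 51.6% of all genes. Slc17a7, the vesicular glutamate transporter of cortical and hippocampal neurons, was at 12.67 to 13.12, and the astrocyte gap junction gene Gja1 at 13.61 to 13.89. Oligodendrocyte and myelin genes were expressed in 17 of 19 cases, microglial genes in 12 of 19 and endothelial genes in 14 of 21. The tight junction gene Cldn5 of brain endothelium was at 10.22 to 10.77, and Ctss, a microglial protease, at 11.97 to 12.27.

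Inhibitory interneurons are a minority of CA1 cells, and 10 of their 17 markers (58.8%) were expressed, against 51.6% of all genes. Among them were Gad1 (11.32 to 11.79), the enzyme that makes GABA, Pvalb (9.19 to 9.57) and Sst (8.70 to 9.68). Tac1, Nos1, Htr3a and Erbb4 were dim. Gad2 crossed the threshold, at 5.50 in replicate 8 and 7.06 in replicate 7.

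Choroid plexus and meningeal genes were mostly dim, against 34.8% of all genes, while neocortical and subicular genes were mostly expressed. Of 13 choroid plexus genes, 10 were dim and only Enpp2, which oligodendrocytes also make, was expressed. Transthyretin (Ttr), the most abundant plexus transcript, ran from 5.69 to 9.50 with a median of 6.49. Replicate 2 stood at 9.50 and replicate 3 at 7.72, while the other arrays were at 6.75 or less. Of 15 meningeal and fibroblast genes, 9 were dim and 3 were expressed (Ptgds, Mgp and Igf2). Of the thalamic list 3 of 9 genes were expressed and 3 were dim. Of the neocortical and subicular list 6 of 9 (66.7%) were expressed, against 51.6% of all genes, and 0 were dim.

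**Figure D2:**
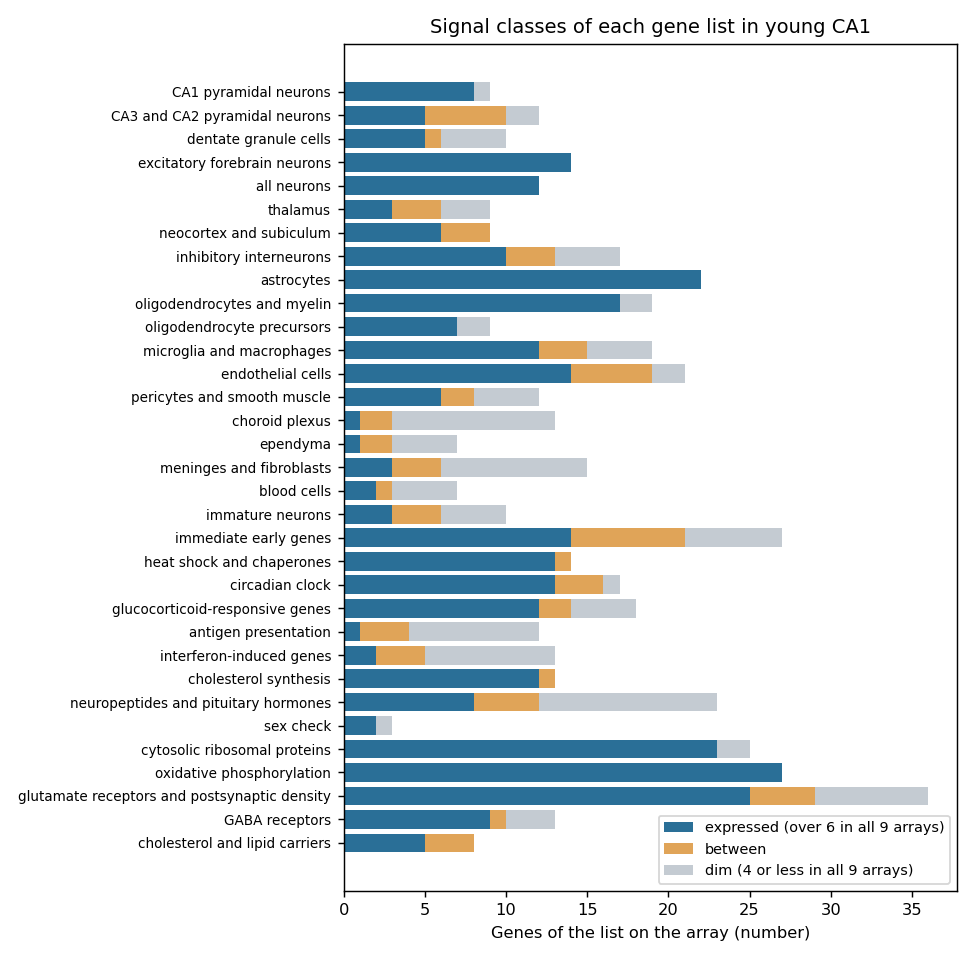
Bars give the number of genes on the array in each list, split into expressed, between and dim genes. All genes of the astrocyte, excitatory neuron, general neuron and oxidative phosphorylation lists were expressed. Of the choroid plexus genes 10 of 13 were dim, and of the antigen presentation genes 8 of 12. Over all genes 51.6% were expressed and 34.8% were dim.

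Most genes of the antigen presentation and interferon lists were dim. Of 12 antigen presentation genes only B2m, the light chain of MHC class I, was expressed, and 8 were dim. The list does not cover all class I genes. Outside it, RT1-CE16 was expressed with a mean of 7.65. RT1-N2, also outside it, had a mean of 6.70 and was over 6 in 7 arrays, but at 3.89 in replicate 7. Cd74, the class II invariant chain, ran from 3.88 to 5.15. Of 13 interferon-induced genes 8 were dim and 2 were expressed, Ifitm3 and Ifi27. Over all genes 34.8% were dim and 51.6% were expressed.

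The CA1 label was checked against subfield markers, and 8 of 9 CA1 markers were expressed while Spink8 was dim. Mpped1 was at 12.25 to 12.71 and Pou3f1, a POU-domain transcription factor, at 10.39 to 11.07. The others were Gpr161, Ccn3 (a matricellular protein), Wfs1 (the Wolfram syndrome protein of the endoplasmic reticulum), Fibcd1, Man1a1 and Dcn (a matrix proteoglycan). Of the other subfields, 5 of 12 CA3 and CA2 genes and 5 of 10 dentate genes were expressed, near or under the 51.6% of all genes. Some of these are not exclusive to their list, since Calb1 (11.26 to 11.82) is also made by superficial CA1 pyramidal cells.

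Replicates 4 and 6 stood apart in these subfield markers. The mean level of the 8 expressed CA1 genes was 10.55 in replicate 4 and 10.49 in replicate 6, and 10.76 to 10.99 in the other 7 arrays. Among the 8 genes, 6 had replicate 4 and 7 had replicate 6 among their 2 lowest arrays, against 21.1% and 30.7% of all expressed genes. Wfs1 was at 10.83 and 10.87 there and at 11.02 to 11.69 elsewhere. The mean of the 5 expressed dentate genes was 9.56 in replicate 4 and 9.26 in replicate 6, against 8.95 to 9.17 in the other arrays.

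The dentate, CA2 and CA3 genes were not uniform. Replicate 4 was among the 2 highest arrays in 4 of 5 expressed dentate genes, and replicate 6 in 2 of 5, as were replicates 5 and 7. Over all expressed genes the share was 17.9% for replicate 4, 12.7% for replicate 6, 11.2% for replicate 5 and 24.5% for replicate 7. In the 5 expressed CA3 and CA2 genes, replicates 4 and 6 were each among the 2 highest in 1. Replicate 4 was among the 2 lowest in 2 of these 5, against 21.1% of all expressed genes. Prox1, the homeobox factor that specifies granule cells, was at 8.58 in replicate 4, 8.15 in replicate 6 and 6.83 to 7.87 elsewhere. Pcp4, a calmodulin regulator abundant in CA2, was at 11.05 and 10.87 against 9.80 to 10.47. Cpne4, on the list of CA3 and CA2 genes and not expressed by the rule, was at 7.85 in replicate 4 and 8.18 in replicate 6, while the other 7 arrays lay between 4.16 and 6.56. Trpc6, a cation channel on the dentate list, was at 6.19 in replicate 4 alone and at 4.81 to 5.05 in the other 8 arrays. Calb1 was among its lower arrays in replicates 4 and 6, at 11.29 in each, and the mean level of the 5 expressed CA3 and CA2 genes in these replicates (10.10 and 10.10) lay inside the range of the others (9.90 to 10.12). Dsp, Tdo2, Plk5 and Pdzd2 of the dentate list were dim in every array. The share of neighbouring subfields in the dissected tissue was not tested.

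**Figure D3:**
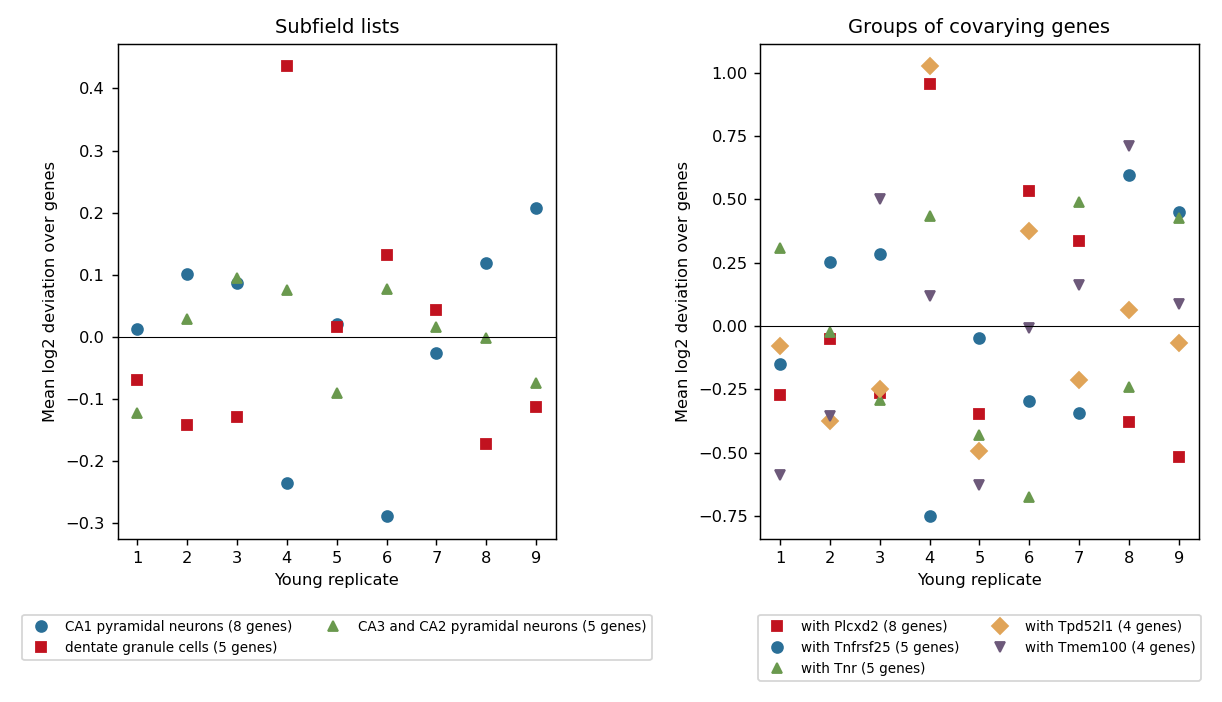
On the left, points give the mean log2 deviation of the expressed CA1, dentate and CA3/CA2 marker genes from their mean over 9 arrays, by young replicate. On the right, points give the same for 5 groups of covarying genes, each named by its most variable gene. Replicates 4 and 6 are lowest for the CA1 list and highest for the dentate list and for the groups with Plcxd2 and Tpd52l1.

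Most expressed genes varied little between animals. The median SD of an expressed gene was 0.128 on the log2 scale, which is a 1.09-fold difference, and the middle 50% of genes lay between 0.0919 and 0.176. An SD over 0.5 was found in 46 of 7334 expressed genes (0.627%), and the highest array was more than 1 log2 unit over the lowest in 261 (3.56%). Brighter genes varied less. The median SD of expressed genes was 0.163 at mean signals of 6 to 8, 0.131 at 8 to 10, 0.102 at 10 to 12 and 0.0779 over 12. Only 1 array was made per animal, so the spread between animals and that of the assay cannot be told apart.

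Lists differed in their spread. Oxidative phosphorylation genes had a median SD of 0.0741 (27 expressed) and ribosomal protein genes of 0.0785 (23 expressed), both with high signals. The median was 0.258 for the CA1 markers (8 genes), 0.236 for endothelial genes (14), 0.223 for microglial genes (12), 0.118 for astrocyte genes (22) and 0.329 for immediate early genes (14). Receptor genes spanned the range. Gria2, the AMPA receptor subunit that sets calcium permeability, had an SD of 0.0724 over 13.08 to 13.31. Grin2a, an NMDA receptor subunit, ran from 10.46 to 11.49, and Camk2a, the calcium/calmodulin kinase of the postsynaptic density, from 11.67 to 12.75. Replicates 3, 6 and 8 were the lowest for Grin2a and replicates 6, 8 and 1 for Camk2a.

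The 10 smallest spreads were found at modest signals. Snrnp40, a splicing factor, ran from 6.61 to 6.64 (SD 0.0096) and Vps18, a vacuolar sorting protein, from 7.32 to 7.35 (SD 0.0129). Tars1, Prkx, Plxna3, Lrfn4, Iah1, Wdr19, Aup1 and Abcb4 completed them. All 10 had means between 6.28 and 8.09, where the typical SD was larger than for bright genes. Of the 33 expressed genes with an SD under 0.03, 20 had a mean of 6 to 8. An SD under 0.03 was seen in 0.45% of expressed genes and in 40.2% of dim genes. Whether these probe sets report their gene was not tested.

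The 40 expressed genes with the largest SD ranged from Arpc4 (0.808) to Lpl (0.511), and the next gene, Tiam1, was at 0.510. This order is a description with no test. Arpc4, a subunit of the Arp2/3 complex that branches actin, was at 9.14 in replicate 2 and 8.71 in replicate 5, and at 6.87 to 7.54 in the other 7 arrays. Creb1, the transcription factor of the site printed above, was at 6.80 in replicate 1 and 6.83 in replicate 7, and at 7.70 to 8.73 in the others. The other probe sets of Creb1 were low, with means of 3.98, 2.75 and 2.17. They correlated with the one used at 0.39, -0.097 and 0.0095, so its split rests on 1 probe set. Arpc4 and Creb1 both split the animals at a wide gap. A gap over 0.5 with at least 2 arrays on each side was found in 29 expressed genes (0.395%), which were singled out after their values were seen.

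Nom1 and Dnajb6 split the animals in the same way. Dnajb6, a chaperone that prevents aggregation, was at 11.48, 11.92 and 11.87 in replicates 3, 5 and 7 and between 10.19 and 10.55 in the other 6. Nom1, a nucleolar protein, was at 7.35, 7.58 and 8.30 in the same 3 replicates and between 6.12 and 6.40 in the other 6. Another probe set of Nom1, with a mean of 4.49 and an SD of 0.328, correlated with the one used at 0.42. The correlation of Nom1 with Dnajb6 over the 9 arrays was 0.95, and Dnajb6 was the expressed gene most correlated with Nom1. In RefSeq (GRCr8) both lie on 1 chromosome with 11 genes between them, the closest such distance among the 40 genes, shared by Grm5 and Prss23, whose correlation was -0.11.

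Other genes close together on a chromosome were looked at in the same way, as a description. Of 107 pairs of expressed genes with an SD over 0.25 and up to 9 genes between them, 11.2% had a correlation over 0.7, against 4.27% of all 216811 pairs of such genes. Over all expressed genes the share was 4.66% for 15915 nearby pairs and 4.35% for all pairs. Mdp1 with Dhrs1 (r = 0.89), Neto2 with Gpt2 (r = 0.85) and Zfp182 with Elk1 (r = 0.84) led the nearby variable pairs, and were singled out after their values were seen. Wfs1, the CA1 marker, and its neighbour Ppp2r2c, a phosphatase regulatory subunit, had a correlation of 0.77. These shares are descriptions over gene pairs, which are not independent.

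The other most variable genes had varied roles. Of 25 expressed glutamate receptor and postsynaptic density genes, 1 (Grm5) had an SD over 0.5, against 0.627% of all expressed genes. The median SD of the list was 0.168, against 0.128 for all expressed genes. Grm5, the metabotropic glutamate receptor 5, ran from 8.02 to 9.86 with a median of 9.45, lowest in replicates 6, 8 and 3. Its other probe set was low, over 4 in 5 of 9 arrays and with a mean of 3.70, and its values correlated with those of the expressed one at 0.94. Scn3a, a voltage-gated sodium channel, ran from 6.47 in replicate 6 to 8.38 in replicate 7. Kalrn, which acts in dendritic spines, ran from 7.33 in replicate 7 to 9.50 in replicate 5, but a further expressed probe set of Kalrn correlated with it at -0.22. Secreted and stromal genes were Ccn2 (6.29 to 8.31), Frzb, a Wnt antagonist (7.66 to 9.19), Sema3c, Metrn, Igf2 and Apoc1, a lipoprotein component (7.30 to 9.21). Ifi27, an interferon-induced gene, ran from 9.59 to 11.16 with replicates 7 and 3 highest.

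Most of the expressed genes that correlated best with the 5 most variable genes had an SD under the median of 0.128. They were picked as the highest correlations among all expressed genes over 9 arrays, so high values can arise from the selection alone. Over all pairs of expressed genes 4.35% of correlations exceeded 0.7. These values therefore cannot show that the genes vary together. Arpc4 correlated most with Slc45a4 (0.91), Cdc34 (0.87) and Tafa5 (0.86). Creb1 correlated most with Zfp622 (0.89), Hapstr1 (0.89) and Cox6b1 (0.88). The SD of these 6 genes lay between 0.0583 and 0.146. Nom1 also correlated with Vamp1 (0.89) and Nalcn (0.87), and Ccn2 with Cdip1 (0.90), Rab3gap1 (0.86) and Tro (0.85). The genes that correlated most with Grm5 had larger SDs. They were Prkce, a protein kinase C isoform (r = 0.96, SD 0.224), Nedd4, a ubiquitin ligase (r = 0.93, SD 0.206), and Sertad2 (r = 0.91, SD 0.452).

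A single animal set the spread of several genes. Cdc73, a subunit of the Paf1 complex, was at 7.49 in replicate 5 and 8.68 or more elsewhere, and its SD of 0.614 was 0.324 without that array. Dck, a nucleoside kinase, was at 7.002 in replicate 1 and 8.04 or more elsewhere. Its SD fell from 0.547 to 0.295 without replicate 1. Lrrc7, the postsynaptic scaffold densin, was at 6.41 in replicate 6 and 7.20 or more elsewhere, with SDs of 0.534 with all arrays and 0.309 without replicate 6. Fam120c was at 8.44 in replicate 8 and Tpd52l1 at 8.88 in replicate 4, and their SDs of 0.539 and 0.581 were 0.329 and 0.321 without these arrays. Fbxw7, a ubiquitin ligase subunit, had an SD of 0.591 and of 0.341 without replicate 3.

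Further genes of the 40 spread over several animals. Psmg3, a proteasome assembly chaperone, ran from 6.35 in replicate 3 to 8.63 in replicate 9 with a median of 7.68. Retsat, a retinol saturase, ran from 8.44 in replicate 4 to 10.36 in replicate 9, and Cyp26b1, which degrades retinoic acid, from 6.81 in replicate 9 to 8.22 in replicate 6. Prss23, a serine protease, was at 8.83 in replicate 6 and 8.70 in replicate 4 and at 7.43 to 8.11 in the other arrays. Anp32a, Swi5, Grhl1, Dennd2b, St7l, Tmem100, Sdf2l1, Ythdf2, Ppp2r2c, Fxyd7 and Arhgap32 had spans of 2.63-fold (Sdf2l1) to 3.69-fold (Dennd2b).

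**Figure D4:**
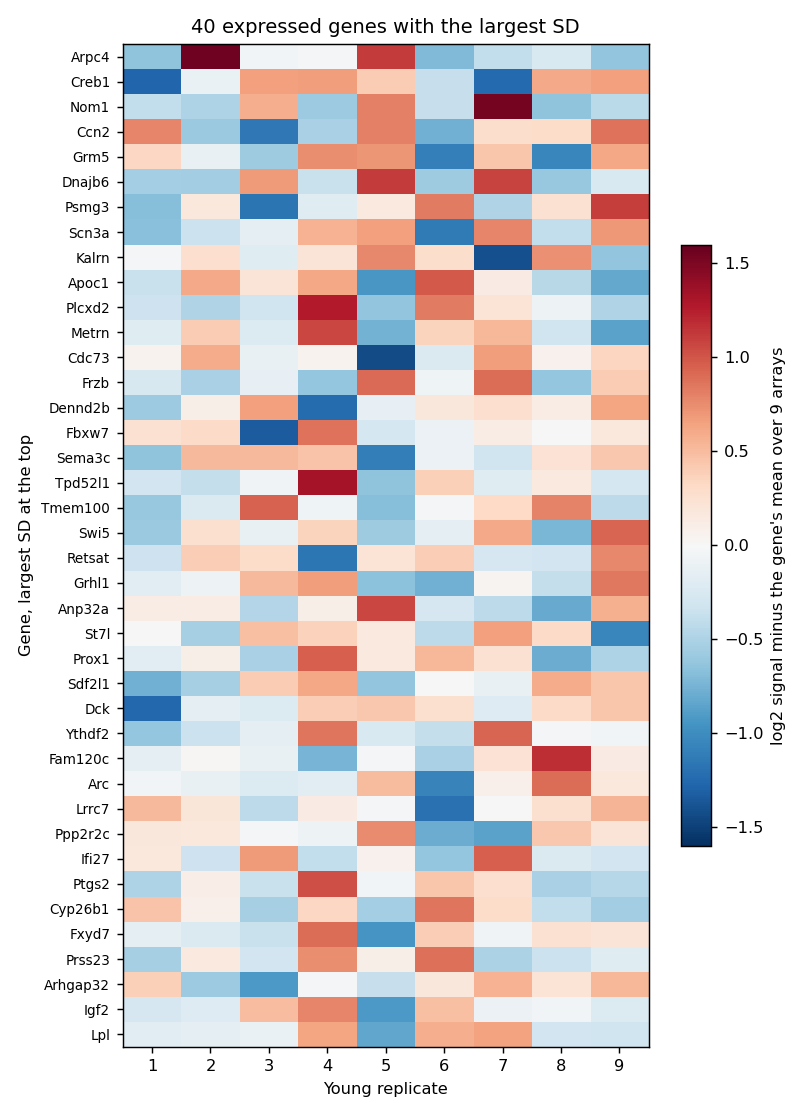
The heat map shows the 40 expressed genes with the largest SD from top to bottom and the 9 young arrays from left to right, with colour for the log2 signal minus the gene's mean over the arrays. High and low animals differ from gene to gene: Nom1 and Dnajb6 are high in replicates 3, 5 and 7, while Plcxd2, Metrn, Tpd52l1 and Prox1 are high in replicate 4.

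A technical check asked whether another probe set of the same gene saw the same differences between animals. Of the 40 most variable genes 22 had only 1 probe set, and in 11 more the others had means of 4 or less. Over the whole array, 1569 genes had another expressed probe set, and in 39 of them (2.49%) the 2 correlated with an adjusted p under 0.05 (2-sided exact permutation of 9 arrays, Benjamini-Hochberg over the 1569 genes). The correlation was above 0 in 1250 genes and its median was 0.38. Among the 97 of these genes with an SD over 0.25, 9 were called. No gene was called with Spearman's rank correlation, and 339 had an unadjusted exact p under 0.05 by Pearson's. The count also changed when 1 array was left out: it was 0 without replicate 1 or replicate 4 and 3 without replicate 8. It was 11 without replicate 6 or replicate 7, 18 without replicate 3 and 19 without replicate 2. Without replicate 5 it was 22 and without replicate 9 it was 26. Fewer arrays have fewer pairings, so the smallest p that can be reached is larger. These counts therefore cannot show whether the calls rested on single animals.

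Only 3 of the 40 most variable genes could be checked in this way. Fbxw7, whose spread rests largely on replicate 3, ran from 7.93 in replicate 3 to 10.13 in replicate 4, and its probe sets correlated at 0.93 (exact permutation, adjusted p = 0.0455; Spearman's rho 0.83). Without the 2 arrays farthest from its median the correlation was 0.62. Ythdf2, a reader of methylated RNA, reached 0.74 (exact permutation, adjusted p = 0.162), and Kalrn -0.22 (exact permutation, adjusted p = 0.761). Among other probe sets that were not expressed but had a mean over 4, that of Frzb correlated at 0.93, that of Grhl1 at 0.62 and that of St7l at -0.66.

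Among genes with a smaller SD, several were called. Synpr, a synaptic vesicle protein, had an SD of 0.345 and a correlation of 0.96 between probe sets (exact permutation, adjusted p = 0.0148). Rasgrp1, a Ras activator, reached 0.94, Dusp6, a MAP kinase phosphatase, 0.94, Ncald, a calcium sensor, 0.95, and the CA1 marker Man1a1, a Golgi mannosidase, 0.95. All but Man1a1 and Dusp6 were singled out after their values were seen.

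Among the 100 genes with the largest SD, 26 fell into 5 groups of at least 4 genes whose average correlation exceeded 0.7. Correlations over 0.7 were no more common in these 4950 pairs (3.90%) than over all pairs of expressed genes (4.35%). The largest group held 8 genes: Plcxd2, Metrn (a neurotrophic factor), Prox1, Ptgs2 (cyclooxygenase 2, an inducible gene of excitatory neurons), Lpl (lipoprotein lipase), Tiam1 (a Rac exchange factor), Tafa2 and Pcp4. Its median pairwise correlation was 0.84. Plcxd2 was at 9.93 in replicate 4 and 9.49 in replicate 6, and at 8.03 to 8.87 elsewhere. Tiam1 was at 9.72 and 9.06 there, and at 8.14 to 8.96 elsewhere. The group with Tpd52l1, Fxyd7, Hpcal1 and Dab2 was also highest in replicates 4 and 6, with a median correlation of 0.79.

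Both groups move with the subfield markers of replicates 4 and 6, and the part of those markers in them was not tested. Without these arrays the median correlation fell to 0.59 in the group with Plcxd2 and to 0.20 in the group with Tpd52l1. With 9 arrays 26 genes were in groups, and clustering the other 7 arrays alone put 47 genes in 9 groups, an alternative chosen after seeing the data. The median was 0.82 in the group with Tnfrsf25, Banp, Rnf6, Inhbb (the activin beta B chain) and Thpol1, which was 0.84 with all arrays and lowest in replicate 4. The group with Tnr (the matrix protein tenascin R), Setd5, Itsn2, Dcaf6 and Fbxo15 was lowest in replicate 6 and kept 0.85. The group with Tmem100, Sdf2l1, Rbm12b and Krcc1 was highest in replicates 8 and 3, lowest in replicates 5 and 1, and kept 0.81. Prox1 and Pcp4 are members of the dentate and CA2 lists, so their place in the group with Plcxd2 is not separate from the split of those lists.

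Of 27 immediate early genes 14 were expressed, a share (51.9%) like the 51.6% of all genes, and 6 were dim. Replicate 6 was lowest in 9 of the 14, against 15.0% of all expressed genes, and replicate 8 was highest in 5, against 19.2%. The others had their lowest signal elsewhere, namely Jun and Nr4a3 in replicate 5, Plk2 and Vgf in replicate 4 and Ptgs2 in replicate 8. Arc, which encodes a capsid-like protein of synaptic plasticity, was at 9.72, 9.65, 9.55, 9.59, 10.27, 8.70, 9.85, 10.66 and 9.94 in replicates 1 to 9, a 3.87-fold span. Nr4a1, an orphan nuclear receptor, ran from 8.72 in replicate 6 to 9.89 in replicate 5, Egr1, a zinc finger factor, from 10.37 in replicate 6 to 11.48 in replicate 8, and Egr4 from 6.56 to 7.98 in the same 2 animals. Junb was at 5.86 in replicate 6 and 6.90 in replicate 8 and was between the classes, as was Fos.

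Correlation with Arc, as a description over all 13 other expressed genes of the list, was above 0 for 11. It was 0.93 for Tiparp, a PARP family enzyme, 0.86 for Nr4a1, 0.81 for Egr4, 0.80 for Klf10 and 0.64 for Vgf. It was 0.35 for Plk2, -0.23 for Jun and -0.49 for Ptgs2. Ptgs2 was high in replicates 4 and 6 with the group of Plcxd2, at 7.71 and 7.12, and lowest in replicate 8 at 6.16. The other correlations with Arc included 0.71 for Egr1, 0.66 for Dusp6, 0.51 for Homer1 and 0.41 for Bdnf. TGACG lay in the 250 bases of Nr4a1, Egr4, Egr1, Vgf and Plk2, and in 1 of 6 promoters of Bdnf. It was not found for Tiparp, Dusp6, Homer1 or Ptgs2, and Klf10, Jun and Nr4a3 had no matching promoter entry. Whether the site goes with the correlation was not tested. Replicate 6 also had the lowest mean of the excitatory neuron list, 11.03 against 11.15 to 11.36 in the other arrays, and the lower CA1 level given above.

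Known partner genes were compared in pairs. Of 43 pairs listed, 22 had means over 4 in both genes, and 19 of the 22 correlations were above 0 with a median of 0.60. By a 2-sided exact permutation of the 9 arrays, 4 had an adjusted p under 0.05 (Benjamini-Hochberg over 22 pairs) and 3 by Spearman's rho. The pairs were chosen with earlier results of these data known, so the p values are descriptive and no independent test. C1qa and C1qb, chains of complement C1q made by microglia, had r = 0.90 and rho = 0.93 (exact permutation, p = 0.00131, adjusted p = 0.0236; rho adjusted p = 0.00825), and r = 0.97 without the 2 arrays farthest from the median of C1qa. C1qa ran from 9.32 in replicate 2 to 9.96 in replicate 9, and C1qb from 7.95 to 8.73.

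The other called pairs were astrocytic or activity genes. Gfap and Aqp4, the astrocyte filament and water channel, had r = 0.88 and rho = 0.98 (exact permutation, p = 0.00257, adjusted p = 0.0236; rho adjusted p = 0.00109). Without the 2 farthest arrays r was 0.81. Gfap ran only from 12.32 to 12.66, a 1.26-fold span, so small differences between animals were ordered alike in both genes. Nr4a1 and Arc had r = 0.86 and rho = 0.92 (exact permutation, p = 0.00322, adjusted p = 0.0236; rho adjusted p = 0.00962), with r = 0.70 without the 2 farthest arrays. Gfap and Vim had r = 0.82 but rho = 0.63 (exact permutation, p = 0.00831, adjusted p = 0.0457; rho adjusted p = 0.279), and r = 0.71 without the 2 farthest arrays. Leaving out replicate 4, replicate 6 or both left no pair with an adjusted p under 0.05, and leaving out replicate 9 left 1 pair. The correlations themselves moved little for C1qa with C1qb (0.89 without replicate 4 and 0.90 without replicate 6) and for Gfap with Aqp4 (0.87 and 0.88), while that of Nr4a1 with Arc was 0.86 and 0.75.

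**Figure D5:**
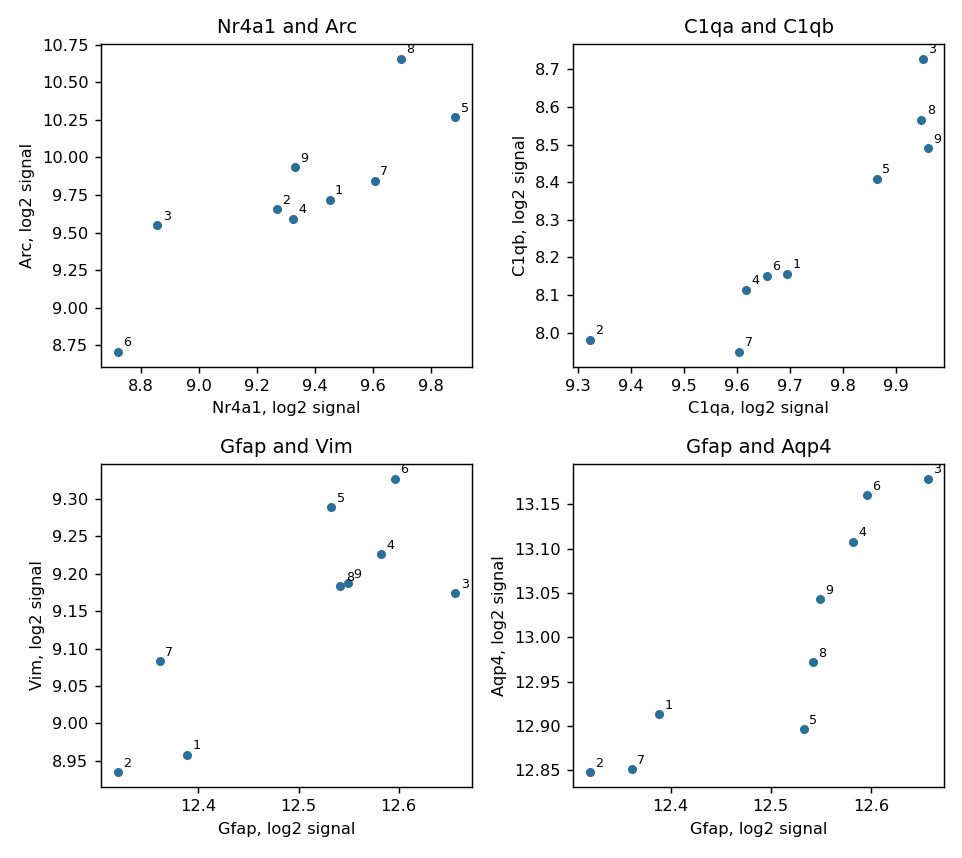
Each panel sets the log2 signals of 2 genes against each other, with 1 point per young rat labelled by its replicate number. Replicate 6 is lowest for Nr4a1 and Arc, and replicates 2 and 7 are the lowest for Gfap, Aqp4, C1qa and C1qb.

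Other pairs rested on few animals or did not covary detectably. Egr1 and Arc had r = 0.71 and rho = 0.37 (exact permutation, p = 0.0358, adjusted p = 0.113; rho adjusted p = 0.563), and r = -0.40 without the 2 arrays farthest from the median of Egr1. Sgk1 and Fkbp5, both induced by glucocorticoids, had r = 0.68 and rho = 0.50 (exact permutation, p = 0.0466, adjusted p = 0.128; rho adjusted p = 0.425). Without replicates 5 and 9, in which Sgk1 was at 11.14 and 11.02 and elsewhere at most 10.34, r was -0.33. Gad1 and Gad2 had r = 0.31 and rho = 0.23 (exact permutation, p = 0.414, adjusted p = 0.506; rho adjusted p = 0.639; r = 0.13 without the 2 farthest arrays), and Mog and Mag r = 0.31 and rho = 0.10 (exact permutation, p = 0.409, adjusted p = 0.506; rho adjusted p = 0.849; r = -0.73 without the 2 farthest arrays).

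The mean levels of glial and vascular lists also differed between animals. The mean of the 14 expressed endothelial genes was lowest in replicates 7 (7.96), 5 (7.97) and 2 (8.05) and highest in replicate 3 (8.37). The hexokinase difference was lowest in replicates 7 (1.26) and 5 (1.31) and highest in replicate 3 (2.05). The 2 measures did not run together in every array. In replicate 2 the hexokinase difference was 1.59, and in replicate 4 it was 1.46 with an endothelial mean of 8.36. Replicate 5 was among the 2 lowest arrays in 45.5% of all expressed genes. The part of the hexokinase difference and of the low signals of replicate 5 in the list levels was not tested. The astrocyte mean was lowest in the same 3 arrays, at 11.47 in replicate 5, 11.48 in replicate 2 and 11.49 in replicate 7, and 11.56 to 11.72 elsewhere. Tek, the angiopoietin receptor of endothelium, ran from 6.88 in replicate 5 to 8.32 in replicate 1. The myelin list was lowest in replicate 5 (10.50) and replicate 6 (10.56) and highest in replicate 3 (10.86). Over pairs within a list the median correlation was 0.48 for endothelial, 0.47 for myelin, 0.44 for astrocyte and 0.40 for microglial genes. It was 0.25 for oligodendrocyte precursor genes, -0.079 for pericyte and smooth muscle genes and 0.11 over all pairs of expressed genes.

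Variation over the 7334 expressed genes was spread over several directions. The first principal component held 24.4% of the variance and set replicate 5 against replicates 8, 3 and 9. The next held 16.1%, with replicates 4 and 7 high, and the third 15.1%, with replicate 6 at one end and replicates 9 and 7 at the other. Plcxd2 and Metrn had the largest loadings on the high side of the component of replicates 4 and 7, and Scn3a, Ccn2 and Grm5 on the side of the third away from replicate 6. Scan dates and batches were not analysed here.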

How the data were processed

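Total RNA of CA1 was measured in 9 young rats on Affymetrix arrays, which are the samples described. The deposited table holds log2 signals, for which the submitters' processing notes name GCRMA, a method that removes background by probe sequence before scaling and summarizing. Neither its version nor its settings are given in the sources used here. No further scaling was applied, and 1 sample column, which was blank, was left out. Of 31099 probe sets 20832 carried 1 gene symbol, 436 several and 9831 none, in the platform annotation. Each of 14218 genes was represented by its brightest single-symbol probe set in the young arrays. RefSeq (GRCr8) held the gene of 20764 single-symbol probe sets. Array number, not read depth, limits precision.

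Spread is the SD over animals. Covarying groups came from average-linkage clustering of the 100 genes with the largest SD, with a mean correlation of 0.7 and at least 4 genes. Tests of correlation enumerated all 362880 pairings of 9 arrays (Python 3.11.15, numpy 2.4.6, scipy 1.17.1) and were checked on simulated data. Named genes were the 20 brightest, the 40 with the largest and 10 with the smallest SD, members of groups and of listed pairs, the 3 genes most correlated with each of the 5 most variable, and up to 8 members by level and the dim members of each list. The genes at the threshold were named too. Other list members, class I genes outside the lists, genes of nearby pairs and other called probe sets were chosen after their values were seen. The members, lists and pairs were chosen with earlier results of these data known. Alternatives covered the threshold, probe set choice, scaling, rank correlation, the spread measure and each array left out.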

Additional observations from a re-analysis of the deposited data

Results flagged for a closer look

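Over 108 genes and 27 list means described above, the distance of the highest or lowest array from its nearest neighbour, as a share of the range of the 9 arrays, was compared with Dixon's critical value for 9 samples. It was exceeded in 11 of 135 cases. Chance exceeds it in about 1 of 20 groups, but that rate is no yardstick here, since many of these genes were picked for a large SD, which 1 distant array raises, and some are members of the lists. Replicate 4 was far above the others for Trpc6 (6.19, nearest 5.05), Dab2 (8.68, nearest 7.96), Dock10 (9.90, nearest 9.50) and the mean of the dentate granule cell list (9.56, nearest 9.26). Replicate 6 was far below for the mean of the immediate early gene list (8.91, nearest 9.25). Replicate 1 was far below for Dck, a nucleoside kinase (7.002, nearest 8.04), and, within narrow ranges, for Serinc1 (13.81, nearest 13.96) and Tmsb4x (14.46, nearest 14.56). Replicate 5 was far below for Cdc73, a subunit of the Paf1 complex (7.49, nearest 8.68). Replicate 2 was far below for Tyrobp, a microglial adaptor (3.90, nearest 4.38), and replicate 8 far above for Fam120c (8.44, nearest 7.49).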

How the results depend on the processing

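Counts of expressed genes, the median SD and the share of the first component kept their size under most settings. With a threshold of 8 in place of 6 there were 4827 expressed genes, and with thresholds of 5, 7 and 8 the genes with an SD over 0.5 numbered 74, 25 and 10. Averaging the probe sets of a gene gave 6159 expressed genes in place of 7334, and 31 with an SD over 0.5 in place of 46. The share of all genes expressed, given beside the lists, therefore rests on the choice of the brightest probe set. Leaving out 1 array gave 7338 to 7358 expressed genes, 40 to 56 with an SD over 0.5, and 23.5% to 28.1% for the first component, which was 18.7% after quantile normalization. Of the 40 most variable genes, 28 to 39 remained with 1 array left out, 18 by the median absolute deviation and 23 when probe sets were averaged. Genes called with another probe set numbered 0 by Spearman's correlation (339 had an unadjusted exact permutation p under 0.05 by Pearson's), 20 after quantile normalization, and 0 to 26 with 1 array left out. Called partner pairs numbered 0 to 4 with 1 array left out and 1 without the 2 arrays farthest from the median. Without those 2 arrays r was -0.40 for Egr1 with Arc and -0.33 for Sgk1 with Fkbp5, the reversals among 8 pairs with an unadjusted exact permutation p under 0.05. Leaving out replicates 4 and 6 together, chosen after seeing the data, gave 0 genes called with another probe set, 0 called pairs and 47 genes in covarying groups, and 33 were in groups after quantile normalization. The cause was not tested for any of these, beyond fewer arrays where arrays were left out. With 9 arrays and 1 array per animal, small correlations cannot be resolved. No paired analysis was possible because only 1 group of animals is described.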
